A study of Mus musculus with 12 samples.

Results

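The 37 genes described here make, convert and break down sphingolipids and gangliosides in the mouse brain. They were chosen by gene name, from ceramide synthesis to ganglioside synthesis and breakdown, and all 37 were found by symbol among the 55536 genes counted. RNA was sequenced from the cerebellum and the cerebral cortex of 1-month-old mice in 12 libraries, 3 for each tissue and genotype, to compare *Snx14*-KO mice with WT mice in each tissue. The study used both sexes, and the labels give no sex for a sample. *Snx14*-KO mice were homozygous in every cell of the body for a frameshift deletion in *Snx14*, made with Cas9 on the C57BL/6J background and backcrossed to it. The labels give mouse numbers 1 to 3 in each genotype, the same numbers in both tissues, and describe every sample as a mix of cell types. Expression was thus measured over whole tissue, in which fewer cells of a type and less RNA per cell cannot be told apart. Of the 37 genes, 36 had enough counts to be tested. *Sptlc3*, which encodes an alternative catalytic chain of serine palmitoyltransferase, had at most 9 counts in a library and fell below the filter on low counts in every comparison.

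Sphingolipids are built on a sphingoid base that serine palmitoyltransferase (SPT) makes from serine and a fatty acid. Ceramide, the base joined to a fatty acid, is the branch point of the pathway and is turned into sphingomyelin, glucosylceramide, ceramide 1-phosphate or, after its fatty acid is removed, sphingosine and sphingosine 1-phosphate (S1P). In neurons much of the glucosylceramide is extended with galactose and sialic acid into gangliosides, while oligodendrocytes make galactosylceramide and sulfatide for myelin, and the lysosome degrades all of these lipids.

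Each library held between 16672589 and 19887427 counts on genes. Counts scaled to the library total with edgeR's TMM factors are given as CPM. *Snx14* was at 63.5 to 66.9 CPM in WT and 10.4 to 11.2 CPM in *Snx14*-KO cerebella, and at 53.5 to 59.8 CPM in WT and 7.68 to 8.49 CPM in *Snx14*-KO cortices, so the genotype labels held in every library. The tissue labels held too: *Gabra6*, *Cbln3* and *Pcp2* were at 410.0 CPM or more in each cerebellum and at 6.69 CPM or less in each cortex, while *Tbr1* and *Emx1* were at 19.7 CPM or more in each cortex and at 1.21 CPM or less in each cerebellum. Markers of choroid plexus epithelium differed most between libraries of a group, with a summed level of 73.4 to 7337 CPM in WT cerebella.

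The genes spanned 3 orders of magnitude in level. TPM, a library's counts per exon length scaled to a fixed total, were used to compare genes with each other. *Psap*, the precursor of the saposins that present sphingolipids to lysosomal enzymes, was the highest in both tissues, at 1843 ± 132 TPM (SD, n = 3) in WT cerebella and 1626 ± 22.2 TPM (SD, n = 3) in WT cortices. In WT cerebella it was followed by *Cerk*, which phosphorylates ceramide, at 247 ± 10.6 TPM (SD, n = 3), and by the dihydroceramide desaturase *Degs1* at 141 ± 10.5 TPM (SD, n = 3). The range of *Degs1* overlapped that of the next gene, the GM3 synthase *St3gal5*, at 130.0 ± 10.4 TPM (SD, n = 3). In WT cortices the order was another: *St3gal5* came after *Psap*, at 194 ± 10.9 TPM (SD, n = 3), then *Cers1* at 109 ± 11.8 TPM (SD, n = 3), which overlapped *B4galt6* and *B4galnt1*, and *Cerk* stood 12th at 52.4 ± 2.94 TPM (SD, n = 3). The lowest of the tested genes were the ceramidase *Acer2* in cerebella, at 1.82 ± 0.170 TPM (SD, n = 3), and the sphingomyelin synthase *Sgms2* in cortices, at 1.27 ± 0.356 TPM (SD, n = 3), whose range overlapped that of *Acer2* there. The spread between replicates was small for most genes, with a median coefficient of variation of 5.04 to 7.40% over the 36 genes in the 4 groups. It was widest for *Sgms2* in WT cerebella, at 68.6%.

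**Figure D1:**
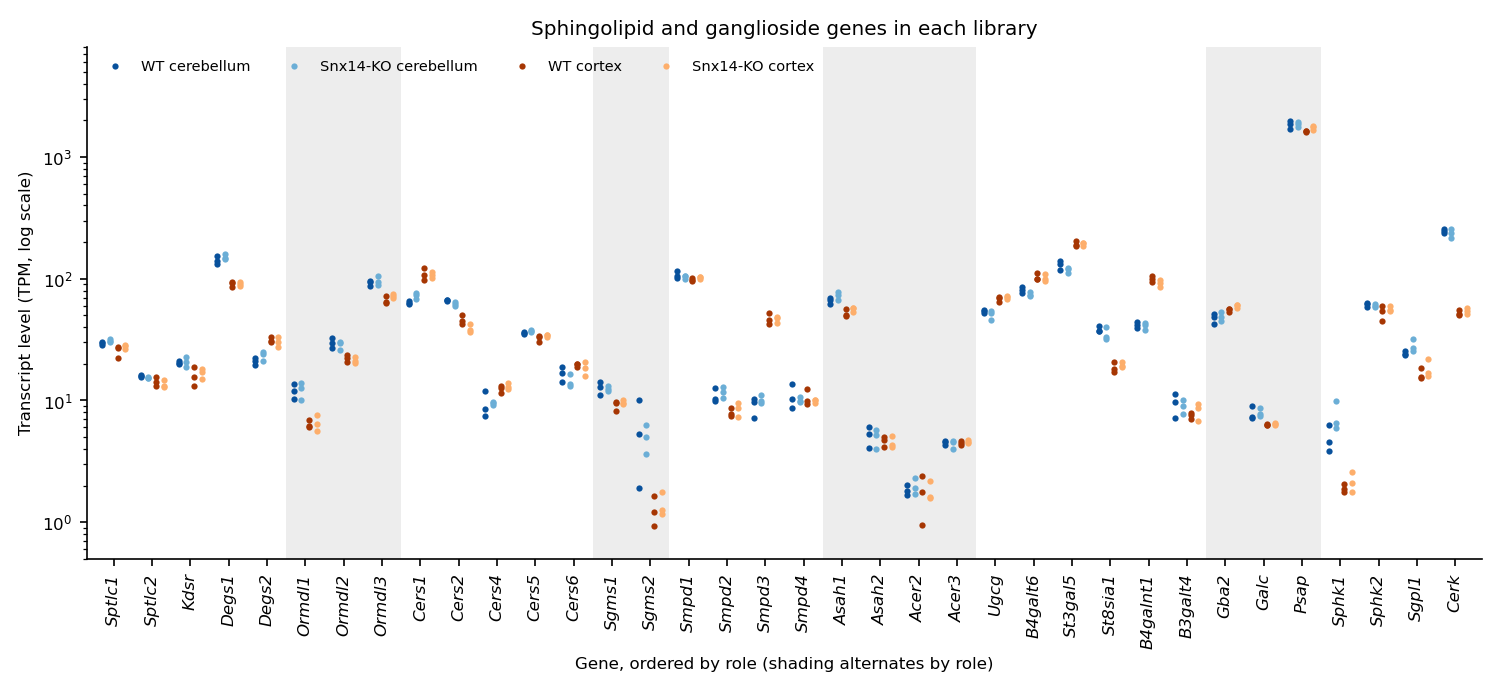
Transcript level in TPM, on a log scale, of the 36 tested genes, ordered by role, with 1 point per library and 1 colour for each tissue and genotype. *Psap* is the highest in every library, and *Cerk*, *Smpd3*, *St8sia1* and *B4galnt1* show the tissues apart in both genotypes.

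Cerebellum and cortex of WT mice differed in many of these genes. Of 36 tested, 25 passed an adjusted p of 0.05 (quasi-likelihood test of edgeR, adjusted over 18543 genes by Benjamini-Hochberg), 15 higher and 10 lower in cerebella. Of all genes tested, 57.4% passed the same threshold, 28.2% higher and 29.2% lower against 69.4% of the sphingolipid genes. The median log2 fold change was 0.13 over the 36 genes and 0.023 over all genes. The largest differences belonged to 5 genes with an absolute log2 fold change over 1 (13.9% of the 36, against 23.4% of all genes): *Cerk*, *Sgms2* and *Sphk1* were higher, and *Smpd3* and *B4galnt1* lower in cerebella. Without TMM, on library size alone, the median of all genes moved to 0.15, the calls were 21 higher and 8 lower, and the share of higher calls among all called genes rose from 49.1% to 60.0%. The difference of each of the 5 genes kept its direction and its call under that scaling.

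*Snx14*-KO mice, whose libraries do not enter the WT comparison, showed tissue differences in nearly the same genes. There, 24 of 36 genes passed, 14 higher and 10 lower in cerebella, against 52.1% of 18542 genes tested, 25.5% higher and 26.6% lower. All 24 had passed in WT mice in the same direction, and *Kdsr*, the reductase that follows SPT, passed in WT mice alone, with a log2 fold change of 0.31 (95% interval 0.071 to 0.55, adjusted p = 0.0299) in WT and 0.23 (95% interval 0.0091 to 0.46, adjusted p = 0.0766) in *Snx14*-KO mice. *Kdsr* did not pass the test of a difference between these effects, given at the end. On library size alone, 17 genes were higher and 9 lower, and the share of higher calls among all genes rose from 48.9% to 61.7%. Each library enters 1 tissue and 1 genotype comparison, so the tissue and genotype results share their libraries. The values below are for WT mice unless *Snx14*-KO is named, and adjusted p is from the same test throughout.

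**Figure D2:**
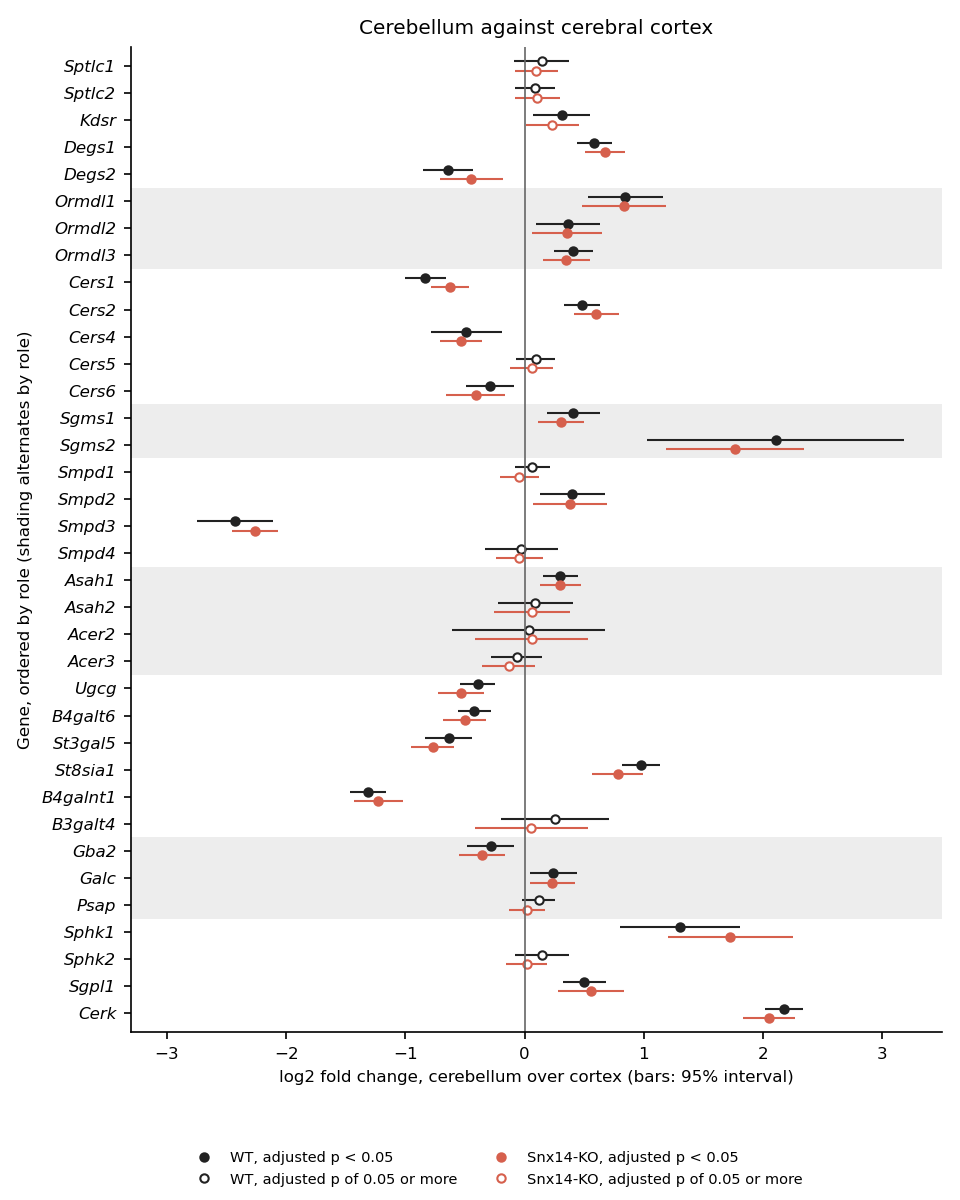
Log2 fold change of cerebellum over cerebral cortex for the 36 tested genes, in WT and *Snx14*-KO mice, with 95% intervals as bars. Filled points passed an adjusted p of 0.05, 25 of them in WT and 24 in *Snx14*-KO mice, and the intervals of both genotypes overlap for every gene.

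Among genes of de novo synthesis, *Sptlc1* and *Sptlc2*, which encode chains of SPT, did not pass the test between tissues, with log2 fold changes of 0.14 (95% interval -0.088 to 0.37, adjusted p = 0.264) and 0.088 (95% interval -0.079 to 0.26, adjusted p = 0.340). The desaturases that introduce the double bond of ceramide went apart. *Degs1* was higher in cerebella (log2 fold change 0.58, 95% interval 0.44 to 0.73, adjusted p = 2.77e-05), and *Degs2*, which also hydroxylates to phytoceramide, was lower (log2 fold change -0.64, 95% interval -0.85 to -0.44, adjusted p = 1.65e-04). *Degs2* made up 13.04% ± 1.28 (SD, n = 3) of the summed TPM of the pair in cerebella and 25.9% ± 0.582 (SD, n = 3) in cortices. All 3 *Ormdl* genes, whose products hold SPT back when ceramide is plentiful, were higher in cerebella, at log2 fold changes of 0.85 (95% interval 0.53 to 1.16, adjusted p = 4.31e-04), 0.37 (95% interval 0.10 to 0.63, adjusted p = 0.0243) and 0.41 (95% interval 0.25 to 0.57, adjusted p = 7.41e-04) for *Ormdl1*, *Ormdl2* and *Ormdl3*. Of the exon bases of *Ormdl2*, 66.7% also belong to *Dnajc14* on the other strand, and read pairs there were counted for both genes.

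The ceramide synthases, each of which joins fatty acids of certain lengths to the sphingoid base, were mixed differently in each tissue. *Cers1*, the main neuronal synthase, was at 63.6, 61.8 and 57.6 CPM in WT cerebella and at 119, 108 and 100.2 CPM in WT cortices, without overlap, a log2 fold change of -0.84 (95% interval -1.01 to -0.66, adjusted p = 5.60e-06). *Cers2*, which makes the very-long-chain ceramides of myelin, went the other way, with 73.9, 76.3 and 72.1 CPM in cerebella and 56.5, 53.3 and 50.0 CPM in cortices (log2 fold change 0.48, 95% interval 0.33 to 0.63, adjusted p = 1.61e-04). Of the summed TPM of the 5 synthases, *Cers1* and *Cers2* had nearly equal parts in cerebella, 33.1% ± 1.63 and 34.7% ± 0.486 (SD, n = 3). In cortices *Cers1* took 49.7% ± 1.42 and *Cers2* 20.9% ± 0.0990 (SD, n = 3). *Cers4* and *Cers6* were lower in cerebella, at -0.49 (95% interval -0.79 to -0.19, adjusted p = 0.00947) and -0.29 (95% interval -0.50 to -0.086, adjusted p = 0.0199), and *Cers5* did not pass, at 0.092 (95% interval -0.075 to 0.26, adjusted p = 0.319). Of the exon bases of *Cers1*, 42.7% are shared with other genes, most of them with *Gdf1*, which is read from the same transcript, so the value of *Cers1* holds read pairs of both. Oligodendrocytes, a main source of *Cers2*, had more marker RNA in cerebella: 7 of 10 markers passed as higher and 0 as lower, none was at 0, and their summed level was 11362 to 14819 CPM in cerebella and 8158 to 8517 CPM in cortices. Its part in the *Cers2* difference was not tested.

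Sphingomyelin is made by *Sgms1* at the Golgi and *Sgms2* at the plasma membrane, and both were higher in cerebella. *Sgms1* differed moderately, with a log2 fold change of 0.41 (95% interval 0.18 to 0.63, adjusted p = 0.00542). *Sgms2* (ENSMUSG00000050931.7, chr3:131318985-131491411, minus strand, GRCm38) was at 3.67, 10.1 and 18.3 CPM in WT cerebella and at 2.34, 1.88 and 3.30 CPM in WT cortices. All cerebella lay above all cortices, but the cerebella spread widely among themselves. The log2 fold change was 2.11 (95% interval 1.03 to 3.18, adjusted p = 0.00359). It was 2.52 without WT cerebellum replicate 1 and 1.47 without WT cerebellum replicate 3, with adjusted p values of 4.4e-05 and 0.0082. In *Snx14*-KO mice *Sgms2* was at 9.36, 12.01 and 6.55 CPM in cerebella and 2.50, 3.398 and 2.32 CPM in cortices (log2 fold change 1.76, 95% interval 1.19 to 2.34, adjusted p = 2.64e-04). The markers of choroid plexus epithelium ordered the WT cerebella in the same way, with summed levels of 73.4, 2707 and 7337 CPM in replicates 1, 2 and 3. All 6 of these markers passed as higher in cerebella, none was at 0, and their part in the *Sgms2* difference was not tested. In WT cortices their sum was 15.9 to 137 CPM. The sums in *Snx14*-KO cerebella were 2011, 3173 and 954 CPM in replicates 1, 2 and 3, also in the order of *Sgms2*. In *Snx14*-KO cortices the sum was 9.04 to 12.3 CPM.

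Of the sphingomyelinases, which release ceramide from sphingomyelin, *Smpd3* differed most between tissues. *Smpd3* (ENSMUSG00000031906.9, chr8:106252548-106337988, minus strand, GRCm38), a neutral sphingomyelinase of the plasma membrane and Golgi, was at 15.7, 16.5 and 10.9 CPM in WT cerebella and at 73.8, 87.4 and 71.5 CPM in WT cortices. It was 5.39-fold lower in cerebella, a log2 fold change of -2.43 (95% interval -2.75 to -2.11, adjusted p = 1.61e-07). In *Snx14*-KO mice the values were 14.9, 15.9 and 16.7 CPM in cerebella and 79.6, 77.6 and 72.1 CPM in cortices (log2 fold change -2.26, 95% interval -2.46 to -2.07, adjusted p = 2.85e-08). No cerebellum of either genotype came near a cortex. The lysosomal acid sphingomyelinase *Smpd1* was the most abundant of the family and did not pass, at 0.064 (95% interval -0.081 to 0.21, adjusted p = 0.424). As a share of the summed TPM of the 4 genes, *Smpd3* was 6.62% ± 1.61 (SD, n = 3) in cerebella and 28.6% ± 2.79 (SD, n = 3) in cortices, and *Smpd1* 77.7% ± 0.103 and 60.1% ± 2.63 (SD, n = 3). *Smpd2*, also a neutral sphingomyelinase, was higher in cerebella (log2 fold change 0.40, 95% interval 0.13 to 0.67, adjusted p = 0.0172), and *Smpd4* did not pass (log2 fold change -0.027, 95% interval -0.33 to 0.28, adjusted p = 0.883). *Mical1* on the other strand shares 20.3% of the exon bases of *Smpd2*, and read pairs there were counted for both genes. Of the ceramidases, which free sphingosine from ceramide, lysosomal *Asah1* was higher in cerebella (log2 fold change 0.30, 95% interval 0.15 to 0.45, adjusted p = 0.00300). *Asah2*, *Acer2* and *Acer3* did not pass, with log2 fold changes of 0.091, 0.035 and -0.066, and the interval of *Acer2*, -0.61 to 0.67, was the widest of the 3.

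**Figure D3:**
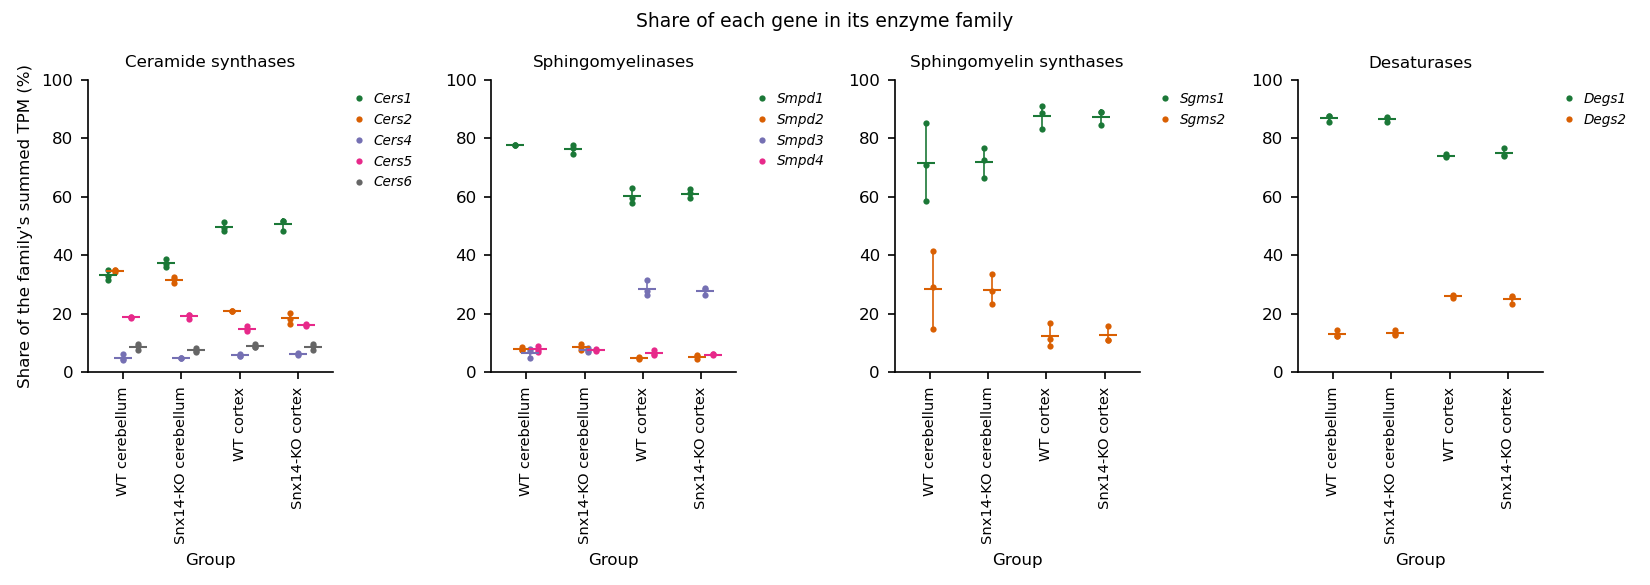
Share of each gene in the summed TPM of its enzyme family, in percent, for the ceramide synthases, sphingomyelinases, sphingomyelin synthases and desaturases. Points are libraries, and horizontal marks with bars are the mean and SD of 3. *Cers1* and *Cers2* are level in WT cerebella and apart in cortices, *Smpd3* is at 28.6% in WT cortices and at 6.62% in WT cerebella, and *Sgms2* varies most in WT cerebella.

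Of the 6 ganglioside synthesis genes, 4 were lower and 1 was higher in cerebella, against 29.2% and 28.2% of all genes. The early enzymes among them were lower: *Ugcg*, which makes glucosylceramide, *B4galt6*, which makes lactosylceramide, and *St3gal5*, which adds the first sialic acid to give GM3. *St8sia1*, which adds a further sialic acid to GM3 and so opens the b-series, was higher. *B4galnt1*, which adds N-acetylgalactosamine to form the complex gangliosides, was lower. In WT cerebella *Ugcg* was at 83.7, 88.6 and 82.4 CPM, *B4galt6* at 143, 138 and 146 CPM and *St3gal5* at 112, 106 and 90.8 CPM. In WT cortices they were at 110.4, 107 and 118 CPM, 199, 187 and 187 CPM and 149, 159.6 and 173 CPM, each above all cerebella. The log2 fold changes were -0.40 (95% interval -0.54 to -0.25, adjusted p = 4.52e-04) for *Ugcg*, -0.42 (95% interval -0.56 to -0.28, adjusted p = 1.74e-04) for *B4galt6* and -0.64 (95% interval -0.83 to -0.44, adjusted p = 1.32e-04) for *St3gal5*. *B4galt5*, a further lactosylceramide synthase outside the 37 genes, did not pass (log2 fold change -0.068, 95% interval -0.27 to 0.14, adjusted p = 0.550). *Ugcg*, *B4galt6* and *St3gal5* kept their direction and an adjusted p below 0.05 on library size alone.

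*B4galnt1* (ENSMUSG00000006731.10, chr10:127165225-127172330, plus strand, GRCm38) was at 46.5, 42.3 and 41.7 CPM in WT cerebella and at 111, 109.6 and 105 CPM in WT cortices, 2.49-fold lower in cerebella (log2 fold change -1.32, 95% interval -1.47 to -1.17, adjusted p = 5.40e-08). *St8sia1* (ENSMUSG00000030283.7, chr6:142821545-142964452, minus strand, GRCm38) was at 107, 107 and 111 CPM in WT cerebella and at 60.0, 51.5 and 54.2 CPM in WT cortices, 1.97-fold higher in cerebella (log2 fold change 0.98, 95% interval 0.82 to 1.14, adjusted p = 9.41e-07). For both genes the tissues did not overlap in either genotype. In *Snx14*-KO mice the log2 fold changes were -1.23 (95% interval -1.43 to -1.02, adjusted p = 2.31e-06) and 0.78 (95% interval 0.57 to 1.00, adjusted p = 8.31e-05). The log2 ratio of *St8sia1* to *B4galnt1* TPM compares the enzyme that leads to the b-series with the one that opens the route to complex gangliosides. This ratio was -0.12 ± 0.11 (SD, n = 3) in WT cerebella and -2.41 ± 0.10 (SD, n = 3) in WT cortices. It was -0.22 ± 0.15 and -2.22 ± 0.13 (SD, n = 3) in *Snx14*-KO mice. With 3 libraries against 3, a two-sided exact permutation test gave p = 0.1 for the tissue difference in each genotype, the smallest value it can give. Since both genes were already apart between tissues in opposite directions, that outcome was fixed in advance and adds nothing to their calls. *B3galt4*, which makes GM1 from GM2, was low in every library, at 3.39 to 5.44 CPM, and did not pass (log2 fold change 0.26, 95% interval -0.20 to 0.71, adjusted p = 0.310). Of the exon bases of *B4galnt1*, 20.7% are shared with *Slc26a10* on the other strand.

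**Figure D4:**
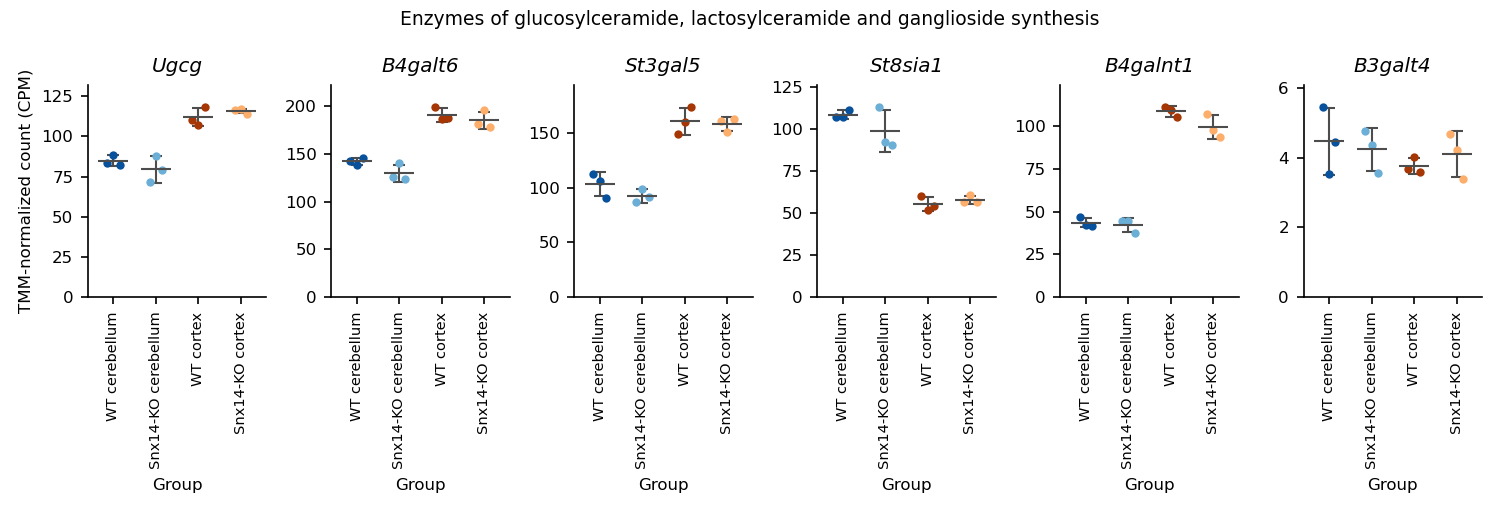
TMM-normalized counts in CPM of the 6 ganglioside synthesis genes in each library, with the mean and SD of 3 libraries as a horizontal mark with bars, and each panel has its own axis from 0. *Ugcg*, *B4galt6*, *St3gal5* and *B4galnt1* sit lower and *St8sia1* higher in cerebella, and *Snx14*-KO and WT points of the same tissue overlap.

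Promoter windows of 4 genes are shown because they differed between tissues in opposite directions: *Cerk* and *St8sia1* were higher, and *Ugcg* and *St3gal5* lower in cerebella. Each window runs 5′ to 3′ from 250 bases before to 50 bases after the RefSeq start of the gene in GRCm38.p6, at chr15:86186092-86186391 on the minus strand, chr6:142964403-142964702 on the minus strand, chr4:59189300-59189599 on the plus strand and chr6:72097358-72097657 on the plus strand. Capitals mark every match, on either strand, to the GC box (GGGCGG), the CCAAT box (CCAAT) and the TATA box (TATAAA).
Cerk: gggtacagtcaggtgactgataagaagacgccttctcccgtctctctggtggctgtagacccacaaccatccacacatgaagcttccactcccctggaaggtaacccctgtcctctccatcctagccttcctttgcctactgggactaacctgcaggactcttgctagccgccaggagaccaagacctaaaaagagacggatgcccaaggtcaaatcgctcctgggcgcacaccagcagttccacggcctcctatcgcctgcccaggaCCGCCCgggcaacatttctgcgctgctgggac
St8sia1: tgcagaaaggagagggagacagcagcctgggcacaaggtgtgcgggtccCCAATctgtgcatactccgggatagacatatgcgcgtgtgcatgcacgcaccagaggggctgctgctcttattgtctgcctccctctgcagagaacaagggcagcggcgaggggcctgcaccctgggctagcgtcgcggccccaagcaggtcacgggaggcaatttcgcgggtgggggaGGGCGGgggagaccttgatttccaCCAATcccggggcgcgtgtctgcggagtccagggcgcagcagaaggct
Ugcg: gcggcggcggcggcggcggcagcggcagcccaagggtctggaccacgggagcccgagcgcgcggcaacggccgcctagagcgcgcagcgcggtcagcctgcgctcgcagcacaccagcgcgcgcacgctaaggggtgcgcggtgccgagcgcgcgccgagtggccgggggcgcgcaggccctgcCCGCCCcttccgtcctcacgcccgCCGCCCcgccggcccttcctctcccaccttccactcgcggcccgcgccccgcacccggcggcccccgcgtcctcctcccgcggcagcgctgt
St3gal5: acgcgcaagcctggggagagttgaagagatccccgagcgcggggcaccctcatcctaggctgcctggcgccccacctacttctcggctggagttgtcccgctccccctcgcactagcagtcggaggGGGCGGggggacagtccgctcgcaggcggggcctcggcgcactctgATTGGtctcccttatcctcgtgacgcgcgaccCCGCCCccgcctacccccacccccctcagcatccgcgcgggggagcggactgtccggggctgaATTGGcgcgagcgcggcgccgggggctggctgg
*Cerk* had 1 GC box, *St8sia1* 1 GC box and 2 CCAAT boxes, *Ugcg* 2 GC boxes, and *St3gal5* 2 GC boxes and 2 CCAAT boxes, and no window held the TATA box. Over all 32851 windows of this length, 35.7% held a GC box, 37.4% a CCAAT box and 13.6% a TATA box. Of the 37 genes, 33 had 49 windows in all, of which 63.3% held a GC box, 32.7% a CCAAT box and 4.08% a TATA box. The median GC content was 62.3% in these windows and 52.7% in all windows, and its part in the shares was not tested. *Asah1*, *B4galnt1*, *B4galt6* and *Smpd3* had no window in the RefSeq table. These matches are a description of the letters and were found in genes that went in both directions.

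Of the genes of glycosphingolipid breakdown, *Gba2*, the glucosylceramidase outside the lysosome, was lower in cerebella (log2 fold change -0.29, 95% interval -0.48 to -0.091, adjusted p = 0.0170) and *Galc*, which removes galactose from galactosylceramide and is lost in Krabbe disease, was higher (log2 fold change 0.24, 95% interval 0.042 to 0.44, adjusted p = 0.0404). *Psap* did not pass (log2 fold change 0.12, 95% interval -0.024 to 0.26, adjusted p = 0.139). Among enzymes that phosphorylate ceramide and sphingosine, *Cerk* (ENSMUSG00000035891.16, chr15:86139128-86186141, minus strand, GRCm38) had the smallest adjusted p of all 36 genes. It was at 382, 364 and 333 CPM in WT cerebella and at 82.6, 77.7 and 79.0 CPM in WT cortices, 4.52-fold higher in cerebella (log2 fold change 2.18, 95% interval 2.02 to 2.33, adjusted p = 1.85e-09). *Snx14*-KO cerebella had 338, 378 and 299 CPM and *Snx14*-KO cortices 82.3, 85.4 and 78.4 CPM (log2 fold change 2.05, 95% interval 1.83 to 2.27, adjusted p = 1.07e-07). The lowest cerebellum thus lay well above the highest cortex in either genotype.

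Of the sphingosine kinases, *Sphk1* (ENSMUSG00000061878.15, chr11:116530925-116536674, plus strand, GRCm38) was the scarcer and differed between tissues. It was at 9.27, 6.74 and 5.36 CPM in WT cerebella and at 2.60, 2.90 and 3.18 CPM in WT cortices (log2 fold change 1.30, 95% interval 0.80 to 1.80, adjusted p = 5.88e-04). In *Snx14*-KO mice it was at 14.1, 8.81 and 9.03 CPM in cerebella and 3.19, 3.84 and 2.68 CPM in cortices (log2 fold change 1.72, 95% interval 1.20 to 2.25, adjusted p = 1.64e-04). *Sphk2* made up 92.6% ± 1.56 (SD, n = 3) of the TPM of the pair in WT cerebella and 96.5% ± 0.764 (SD, n = 3) in WT cortices and did not pass (log2 fold change 0.15, 95% interval -0.078 to 0.37, adjusted p = 0.237). *Dbp* and *Rpl18* on the other strand share 21.9% of the exon bases of *Sphk2*. Read pairs there were counted for each gene, so the level and share of *Sphk2* can hold pairs of these genes. *Sgpl1*, the lyase that cleaves S1P irreversibly, was higher in cerebella (log2 fold change 0.50, 95% interval 0.32 to 0.68, adjusted p = 3.62e-04).

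The smaller tissue differences were less firm than those above. In WT mice, leaving out a single library ended the call of *Galc* (WT cerebellum replicate 3 or any WT cortex), *Ormdl2* (WT cerebellum replicate 2 or 3, WT cortex replicate 1 or 2), *Smpd2* (WT cerebellum replicate 3, WT cortex replicate 2 or 3), *Kdsr* (WT cerebellum replicate 1 or 2, WT cortex replicate 2 or 3), *Cers6* (WT cortex replicate 3) and *Gba2* (WT cortex replicate 2). On library size alone the calls of *Cers6* (log2 fold change -0.17, adjusted p = 0.165) and *Gba2* (log2 fold change -0.16, adjusted p = 0.110) also ended, while *Cers5*, *Psap*, *Smpd1*, *Sphk2*, *Sptlc1* and *Sptlc2* gained one. *Sphk2* also gained a call without WT cortex replicate 2. The call of *Galc* was lost by DESeq2 (adjusted p = 0.0811) and without the filter on low counts (adjusted p = 0.0604). In the fits without the libraries that ended a call, the log2 fold changes lay between 0.16 and 0.39 for the first 4 genes, and were -0.28 for *Cers6* and -0.27 for *Gba2*. Without WT cerebellum replicate 3, *Gba2* kept its call at a log2 fold change of -0.19. In *Snx14*-KO mice the call of *Galc* ended without any 1 of the 6 libraries, and those of *Ormdl2*, *Smpd2* and *Sgms1* without 5, 4 and 1 of them.

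A wider list of 38 sphingolipid genes was read in the same comparison, and 35 of them were tested. Of these, 16 were higher and 5 lower in WT cerebella (60% against 57.4% of all genes). The largest difference was that of *St6galnac5*, a sialyltransferase of alpha-series gangliosides, which was at 5.50, 5.01 and 6.11 CPM in cerebella and 84.3, 58.6 and 72.1 CPM in cortices, 12.9-fold lower in cerebella (log2 fold change -3.69, 95% interval -4.02 to -3.36, adjusted p = 8.68e-09). Of the sialyltransferases that add further sialic acids to gangliosides, *St8sia3* was lower (log2 fold change -1.26, 95% interval -1.42 to -1.10, adjusted p = 1.50e-07) and *St8sia5* higher in cerebella (log2 fold change 1.06, 95% interval 0.84 to 1.28, adjusted p = 5.73e-06). In S1P signalling, the phosphatase *Sgpp2* was 4.69-fold higher (log2 fold change 2.23, 95% interval 2.03 to 2.43, adjusted p = 9.46e-09), the receptor *S1pr2* higher (log2 fold change 1.18, 95% interval 0.67 to 1.70, adjusted p = 0.00131) and the receptor *S1pr3* lower (log2 fold change -1.36, 95% interval -1.73 to -0.996, adjusted p = 4.37e-05). *Sptssb*, a small subunit that lets SPT take longer fatty acids, was 3.64-fold higher (log2 fold change 1.87, 95% interval 1.43 to 2.30, adjusted p = 1.43e-05).

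Against these differences between tissues, none of the 36 genes passed the test between genotypes. In cerebella, 0 of 36 were called by edgeR's quasi-likelihood test at an adjusted p of 0.05, where 0.00549% of 18201 genes were called, the 1 gene being *Snx14*. DESeq2 called 1.13% of all genes and 0 of the 36. Without *Snx14*-KO cerebellum replicate 2, edgeR called 250 genes higher and 14 lower, and 0 of the 36. At an unadjusted p under 0.05 there were 3 of 36, against 8.15% of all genes. The log2 fold changes of *Snx14*-KO over WT ran from -0.21 to 0.60, with 18 above and 18 below 0 (49.9% of all genes were above) and a median of -0.0077, against -0.00062 over all genes. The genotypes were fully apart for 4 of 36 genes, 2 higher (*Cers1* and *Sgpl1*) and 2 lower (*Cers2* and *Sptlc2*), against 12.5% of all genes (6.21% higher, 6.32% lower). The 95% interval lay within an absolute log2 fold change of 0.50 for 31 of 36 genes. The exceptions were *Sgms2*, *Sphk1*, *B3galt4*, *Acer2* and *Smpd3*, whose differences in cerebella these libraries do not bound at that size.

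The 5 genes with the smallest p in cerebella were *Cers1*, *Sphk1*, *Sgpl1*, *Cers6* and *Cers2*, and none passed. *Cers1* was at 63.6, 61.8 and 57.6 CPM in WT and 71.7, 66.9 and 68.1 CPM in *Snx14*-KO cerebella, the lowest *Snx14*-KO value lying above the highest WT value. Its log2 fold change was 0.19 (95% interval 0.044 to 0.34), with an unadjusted p of 0.0164 and an adjusted p of 0.445. *Sphk1* was at 9.27, 6.74 and 5.36 CPM in WT and 14.1, 8.81 and 9.03 CPM in *Snx14*-KO cerebella, and the groups overlapped. Its log2 fold change was 0.60 (95% interval 0.061 to 1.13), with an adjusted p of 0.538, and 0.34 without *Snx14*-KO replicate 1. *Sgpl1*, with 44.3, 46.2 and 45.4 CPM in WT and 49.1, 48.2 and 56.8 CPM in *Snx14*-KO cerebella, did not overlap and had a log2 fold change of 0.20 (95% interval 0.0064 to 0.39, adjusted p = 0.586), which was 0.11 without *Snx14*-KO replicate 3. The 10 markers of meningeal fibroblasts summed to 437 to 470.5 CPM in *Snx14*-KO and 172 to 336 CPM in WT cerebella, without overlap. None passed in edgeR, 7 were called by DESeq2, none was at 0, and their part in these values was not tested. *Snx14*-KO replicate 3, on which the value of *Sgpl1* rests, stood apart in the 10 microglia and macrophage markers, at a sum of 465 CPM against 190.5 and 207 CPM, and in *Gfap*, at 911 CPM against 373 and 441 CPM. Their part was not tested either.

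*Cers6* and *Cers2* had fitted values below 0 in *Snx14*-KO cerebella. *Cers6* was at 38.6, 46.3 and 49.0 CPM in WT and 35.1, 37.4 and 42.4 CPM in *Snx14*-KO cerebella, with overlap (log2 fold change -0.21, 95% interval -0.46 to 0.049, adjusted p = 0.735). Without WT replicate 3 its log2 fold change was -0.14. *Cers2* was at 73.9, 76.3 and 72.1 CPM in WT and 65.6, 69.6 and 68.3 CPM in *Snx14*-KO cerebella, without overlap (log2 fold change -0.11, 95% interval -0.26 to 0.03, adjusted p = 0.752). The 6 ganglioside synthesis genes had log2 fold changes of -0.15 to -0.027 in cerebella, none with an unadjusted p under 0.05. Their median 95% half-width was 0.20. All 10 oligodendrocyte markers were also fitted below 0 in *Snx14*-KO cerebella, with a median of -0.16 and summed levels of 11594 to 13399.9 CPM against 11362 to 14819 CPM in WT, and none passed. Whether they bear on *Cers2* was not tested.

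**Figure D5:**
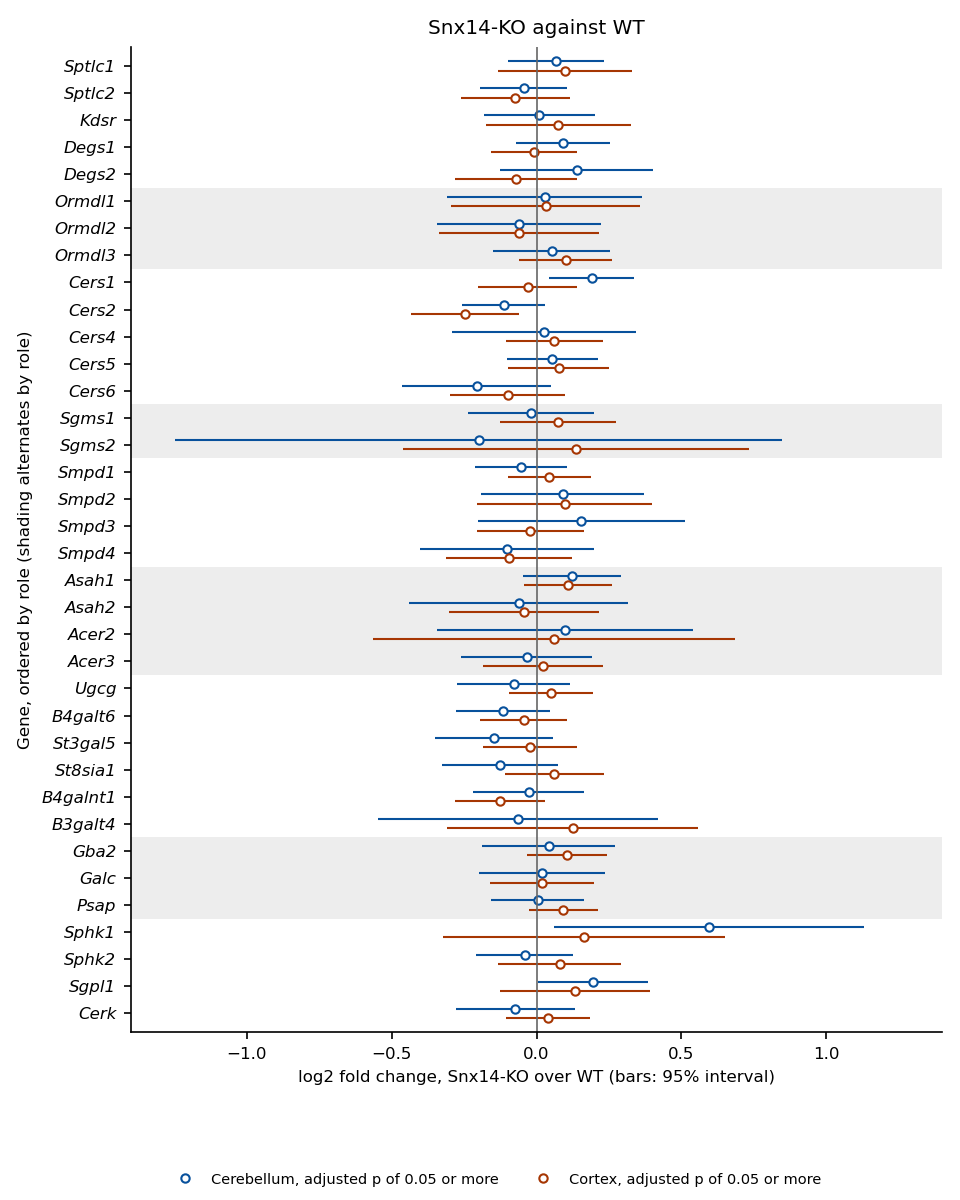
Log2 fold change of *Snx14*-KO over WT for the 36 tested genes in cerebellum and cerebral cortex, with 95% intervals as bars. Open points have an adjusted p of 0.05 or more, which holds for every gene in both tissues. *Sgms2* in cerebella has the widest interval, and *Sphk1* in cerebella has the largest fitted value, 0.60.

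In cortices, 0 of 36 genes were called by edgeR's quasi-likelihood test, where 0.00548% of 18255 genes, again *Snx14* alone, were called. DESeq2 called 0.0876% of all genes and 0 of the 36. *Cers2* was the 1 gene of 36 with an unadjusted p under 0.05, against 4.5% of all genes. The log2 fold changes ran from -0.25 to 0.16, with 23 above and 13 below 0 (50% of all genes were above), and a median of 0.046. The genotypes were fully apart for 3 of 36 genes, *Psap* and *Gba2* higher and *Cers2* lower, against 9.24% of all genes (4.57% higher, 4.67% lower). For 32 of 36 genes the 95% interval lay within an absolute log2 fold change of 0.50, the exceptions being *Sgms2*, *Acer2*, *Sphk1* and *B3galt4*, and for all 36 it lay within 1.

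*Cers2* was at 56.5, 53.3 and 50.0 CPM in WT and 43.8, 41.4 and 49.4 CPM in *Snx14*-KO cortices, all *Snx14*-KO values lying below the WT values. Its log2 fold change was -0.25 (95% interval -0.43 to -0.061), with an unadjusted p of 0.0134 and an adjusted p of 0.996. *B4galnt1* was at 111, 109.6 and 105 CPM in WT and 107, 97.9 and 93.8 CPM in *Snx14*-KO cortices, with overlap (log2 fold change -0.13, 95% interval -0.28 to 0.031, adjusted p = 0.996), and its log2 fold change was -0.082 without *Snx14*-KO replicate 3. *Psap* was at 1391, 1410.1 and 1439 CPM in WT and 1536, 1535 and 1450.0 CPM in *Snx14*-KO cortices, without overlap, a log2 fold change of 0.093 (95% interval -0.027 to 0.21, adjusted p = 0.996). *Gba2* was at 77.1, 81.1 and 76.7 CPM in WT and 85.9, 84.2 and 82.4 CPM in *Snx14*-KO cortices, without overlap (log2 fold change 0.10, 95% interval -0.034 to 0.24, adjusted p = 0.996), and *Asah1* was at 58.4, 54.5 and 53.8 CPM in WT and 57.6, 60.6 and 61.7 CPM in *Snx14*-KO cortices, with overlap (log2 fold change 0.11, 95% interval -0.044 to 0.26, adjusted p = 0.996).

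In the wider list, 0 of 35 genes passed in either tissue by edgeR or DESeq2, and 3 had an unadjusted p under 0.05 in each, where 8.15% of all genes in cerebella and 4.5% in cortices had one. In cortices the smallest p belonged to *Fa2h*, which hydroxylates fatty acids of myelin galactolipids, and *Ugt8a*, which makes galactosylceramide. *Fa2h* was at 42.9, 33.4 and 38.5 CPM in WT and 31.9, 29.7 and 29.9 CPM in *Snx14*-KO cortices (log2 fold change -0.33, 95% interval -0.55 to -0.11, adjusted p = 0.996). *Ugt8a* was at 95.5, 87.6 and 88.8 CPM in WT and 70.3, 76.5 and 82.7 CPM in *Snx14*-KO cortices (log2 fold change -0.25, 95% interval -0.41 to -0.081, adjusted p = 0.996). Neither overlapped between genotypes. *Gal3st1*, which makes sulfatide, was at 17.1, 16.6 and 16.1 CPM in WT and 16.4, 13.1 and 16.4 CPM in *Snx14*-KO cortices, with overlap (log2 fold change -0.12, 95% interval -0.39 to 0.14, adjusted p = 0.996). The third was *St8sia3*, with a log2 fold change of -0.17 (95% interval -0.34 to -0.012, adjusted p = 0.996). All 10 oligodendrocyte markers were fitted below 0 in these cortices too, with a median of -0.30, none passed, and none was at 0. Their summed level was 7509, 5736 and 8225 CPM in *Snx14*-KO cortices and 8158 to 8517 CPM in WT cortices, and its part in the values of *Fa2h*, *Ugt8a* and *Cers2* was not tested. The same replicate 2 stood apart in *Gfap*, an astrocyte gene, at 1046 CPM against 200.4 and 262 CPM in the other *Snx14*-KO cortices, and in the 10 meningeal fibroblast markers, which summed to 354 CPM against 137 and 123 CPM. Without it, *Cers2* had a log2 fold change of -0.19.

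In cerebella, the smallest p of the wider list were those of *S1pr5*, an S1P receptor of oligodendrocytes (log2 fold change -0.32, 95% interval -0.54 to -0.09, adjusted p = 0.408), *S1pr1*, the receptor of endothelium and astrocytes (log2 fold change 0.19, 95% interval 0.045 to 0.34, adjusted p = 0.438), and *Hexa*, which encodes a subunit of the lysosomal hexosaminidase that degrades GM2 (log2 fold change 0.51, 95% interval 0.054 to 0.96, adjusted p = 0.533). The 10 markers of astrocytes and Bergmann glia summed to 8394 to 9434 CPM in *Snx14*-KO and 7665 to 8377 CPM in WT cerebella, without overlap. Of these, 8 were fitted above 0, none passed and none was at 0, and their part in the value of *S1pr1* was not tested. *Hexa* was at 30.5, 38.4 and 31.7 CPM in WT and 35.7, 41.7 and 64.2 CPM in *Snx14*-KO cerebella. Without *Snx14*-KO replicate 3 its log2 fold change was 0.21. In that replicate the 10 markers of microglia and macrophages summed to 465 CPM, against 190.5 and 207 CPM in the other *Snx14*-KO cerebella and 150.1 to 197 CPM in WT cerebella. None of these markers was at 0, 10 of 10 were fitted above 0 without passing, and their part in the value of *Hexa* was not tested.

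For none of these genes did the genotype effect pass a test of its difference between tissues. In a fit of all 12 libraries with a tissue by genotype term, edgeR called 0 of 36 genes at an adjusted p of 0.05 and 0% of all 19380 genes, and 0 of 36 had an unadjusted p under 0.05, against 5.68% of all genes. DESeq2 called 0.186% of all genes and 0 of the 36. The smallest p was that of *Cers1*, whose log2 fold change of *Snx14*-KO over WT was larger in cerebella by 0.21 (95% interval -0.018 to 0.43, adjusted p = 0.931). The median 95% half-width of this difference, not adjusted over genes, was 0.28 over the 36 genes. Differences of about that size or less could not be told from 0 with these libraries. An adjusted p under 0.05 asks for more than such an interval that leaves out 0, so larger differences could also go uncalled.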

How the data were processed

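RNA of 12 frozen cerebella and cerebral cortices was sequenced. The authors aligned the reads with STAR to GRCm38 and counted read pairs per GENCODE vM21 gene with featureCounts 2.0.1, ignoring strand and counting a pair for each gene it overlapped. The deposited values are raw counts per gene, 16672589 to 19887427 per library. Numbered features that are no genes, 0.0506 to 0.0632% of counts, were left out. Genes passing filterByExpr (minimum count 10) were tested with edgeR 4.0.16 (TMM, quasi-likelihood test, Benjamini-Hochberg over all genes tested, R 4.3.3), and the code was tested on simulated data. A call is an adjusted p under 0.05. DESeq2 1.42.0, other scalings, no filter, a fold threshold, a 4-group fit, a replicate block and leaving out each library were tried as alternatives. CPM are TMM-normalized, and TPM use exon length.

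The 37 genes and all lists were chosen with earlier results of these data known. Values in every library are given for the 5 genes with the smallest p in each genotype comparison and for called genes with an absolute log2 fold change over 1 between WT tissues. Wider-list genes are named where they passed that same rule or had 1 of the 3 smallest p between genotypes. Other values by library, *B4galt5*, *Gal3st1* and the promoters shown were chosen after their values were seen.

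Mouse numbers come from the labels and are the same in both tissues of a genotype. They were read here as the same animal, which the labels do not state outright. Deviations from the group means of same-numbered libraries correlated at 0.111, 0.159 and 0.0731 between WT tissues and at 0.338, 0.0178 and 0.102 between *Snx14*-KO tissues, over 19380 genes. *Snx14*-KO cerebella 2 and 3 correlated better with a cortex of another number, at up to 0.0421 and 0.155. WT and *Snx14*-KO mice share only a number. No 2 libraries were identical.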

Additional observations from a re-analysis of the deposited data

How the results depend on the processing

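No gene of the 36 was called between genotypes, or for the difference between tissues, under any alternative tried, including the replicate block. Of 1040 values under an alternative for genes called between tissues or named between genotypes, 971 kept their direction and side of the threshold, 69 kept their direction but lost the call, and 0 reversed. Among the other genes, on library size alone *Cers5*, *Psap*, *Smpd1*, *Sphk2*, *Sptlc1* and *Sptlc2* gained a call between WT tissues, and *Kdsr*, *Sptlc1* and *Sptlc2* between *Snx14*-KO tissues. *Kdsr* also gained one there without *Snx14*-KO cerebellum replicate 1 or cortex replicate 3, and *Sphk2* in WT without cortex replicate 2. With an absolute log2 fold change over 0.50 also required, 12 of the 25 genes called between WT tissues and 15 of the 24 called between *Snx14*-KO tissues were left, since fewer passed the added threshold. That setting reused the main fit, so none of its values among the 1040 could reverse. The 1040 also include the values of *Snx14*. Other settings gave 24 to 29 genes in WT and 21 to 26 in *Snx14*-KO mice, and leaving out 1 library gave 21 to 24 and 21 to 22. With the mouse number as a replicate block, 25 genes were called between WT tissues and 23 between *Snx14*-KO tissues, where *Kdsr* gained its call and *Galc* (adjusted p = 0.0553) and *Ormdl2* (adjusted p = 0.0678) lost theirs. Counts over all genes between genotypes moved more. In cerebella edgeR called 0 genes higher and 1 lower, against 250 and 14 without *Snx14*-KO replicate 2, 354 and 35 without the filter on low counts, 46 and 4 in the fit of all 4 groups, 173 and 33 by DESeq2, and 9 and 1 without WT replicate 2. In cortices it called 0 and 1, against 104 and 114 without the filter and 3 and 13 by DESeq2. For the difference between tissues it called 0, against 373 and 45 without the filter, 242 and 7 without *Snx14*-KO mouse 2, and 35 and 1 by DESeq2. The cause was not tested. Between genotypes the intervals of *Sgms2*, *Sphk1*, *Acer2* and *B3galt4* reached beyond an absolute log2 fold change of 0.50 in both tissues. These libraries thus do not bound the differences of these genes at that size.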
